A study of Mus musculus with 36 samples.

Results

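The GATA factors Gata2, Gata3, Gata4, Gata5 and Gata6 were examined in cultured mouse mesenchymal stem cells (MSCs) from 4 tissues. These 5 genes were taken by name from the 24411 genes listed in each RNA-seq library, together with every accessible region within 100 kb of them. After regions of the 4 tissues that share at least 1 base were merged, 97 of 149650 accessible regions lay within that distance. The MSCs came from femoral bone marrow (fBM-MSCs), vertebral bone marrow (vBM-MSCs), adipose tissue (A-MSCs) and lung (P-MSCs, pulmonary) of 8-week-old C57BL6/J mice. No gene was altered and no agent was compared. Marrow cells were obtained by crushing the bones, whereas adipose tissue and lung were minced and digested with collagenase, so the way the cells were released differed with the marrow or non-marrow origin. All cells were grown in MesenCult medium and used within 3 passages. RNA-seq (Smart-seq2) comprised 3 biological replicates of each tissue. The third vBM-MSC library was not analysed here, which leaves 11 libraries with 19569650 to 40517739 expected counts each. ATAC-seq, which cuts open chromatin with the Tn5 transposase, gave 1 peak list per tissue made from pooled samples, so its values have no replicate error and were not tested. All 4 tissues were collected from the same 3 mice, so libraries of different tissues can share an animal. Which ones do is not stated, the model took no account of it, and p-values measure only the spread between libraries. Where 4 values are given for the 4 tissues, their order is femoral marrow, vertebral marrow, adipose tissue and lung.

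GATA factors are transcription factors with a pair of zinc fingers that bind short DNA words built around the letters GATA. Several of them can bind closed chromatin and open it. Gata1, Gata2 and Gata3 are best known from blood: Gata1 drives red cell and platelet formation, Gata2 maintains blood stem cells and acts in mast cells and endothelium, and Gata3 directs T helper cells. Gata4, Gata5 and Gata6 act in the heart, gut, gonad and extraembryonic endoderm. In adipose precursors, Gata2 and Gata3 hold back differentiation into fat cells.

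In A-MSCs and P-MSCs, Gata2, Gata3, Gata4 and Gata6 stood above both marrow MSCs, and Gata5 was close to absent in all 4 tissues. For each of Gata2, Gata3, Gata4 and Gata6, every A-MSC and P-MSC library had a higher TPM (transcript abundance scaled for transcript length and library size) than every fBM-MSC and vBM-MSC library. The same held for 9.51% of the 12509 genes tested. Gata4 passed the count minimum of the test, given below, only through A-MSC and P-MSC libraries, so its direction against marrow was fixed. Summed over the 5 genes, the level was 28.5 ± 4.74 TPM in A-MSCs (SD, n = 3) and 26.4 ± 1.24 TPM in P-MSCs (n = 3). It was 11.8 ± 5.69 TPM in vBM-MSCs (n = 2) and 6.42 ± 2.28 TPM in fBM-MSCs (n = 3). Gata2 made up most of this sum in every library, from 60.8% in an fBM-MSC library to 87.8% in a vBM-MSC library. Libraries of vBM-MSCs held the most Gata2-dominated sums, at 86.3% and 87.8%, above the 60.8% to 73.0% of the other tissues. In bulk RNA, fewer cells expressing a gene and less RNA per cell cannot be told apart.

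**Figure D1:**
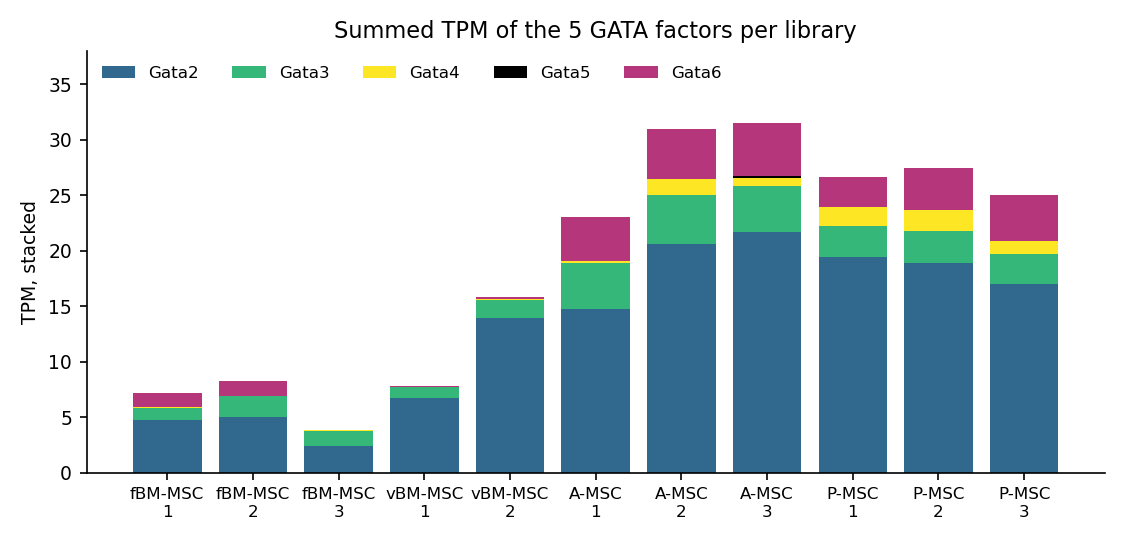
The stacked bars give the TPM of each of the 5 GATA factors in each of the 11 RNA-seq libraries, grouped by tissue. The totals run from 3.87 TPM in fBM-MSC replicate 3 to 31.47 TPM in A-MSC replicate 3, and the Gata2 segment is the largest in every bar.

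Differences between tissues were tested on the expected counts of all genes in one edgeR quasi-likelihood model, with Benjamini-Hochberg adjustment over 12509 genes and a threshold of 0.05. Gata5 did not reach the minimum of 1 CPM (counts scaled to library size) in 2 libraries and was not tested. Gata4 reached that minimum only in A-MSC and P-MSC libraries, so it could enter the test only by differing from marrow. Against fBM-MSCs, Gata2, Gata3, Gata4 and Gata6 were called higher in A-MSCs, where 20.3% of all tested genes were. The same 4 were called higher in P-MSCs than in fBM-MSCs, where 23.0% of genes were. Against vBM-MSCs, the 4 were called higher in A-MSCs, where 12.4% of genes were. Gata3, Gata4 and Gata6 were called higher in P-MSCs than in vBM-MSCs, where 17.7% of genes were. Between A-MSCs and P-MSCs only Gata3 was called, higher in A-MSCs, as were 16.0% of genes. Between the marrow tissues only Gata2 was called, higher in vBM-MSCs, as were 7.56% of genes. No member was called lower in the first-named tissue of these 6 comparisons. Of all genes, 20.6% and 24.7% were called lower in A-MSCs and in P-MSCs than in femoral marrow cells, 13.2% and 21.0% lower than in vertebral marrow cells, 14.9% lower in adipose than in lung cells, and 5.24% lower in vertebral than in femoral marrow cells. Over the 4 tissues together all 4 were called (adjusted p from 0.000274 for Gata2 to 0.00485 for Gata6), as were 60.6% of genes. Comparisons that share a tissue share its libraries.

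**Figure D2:**
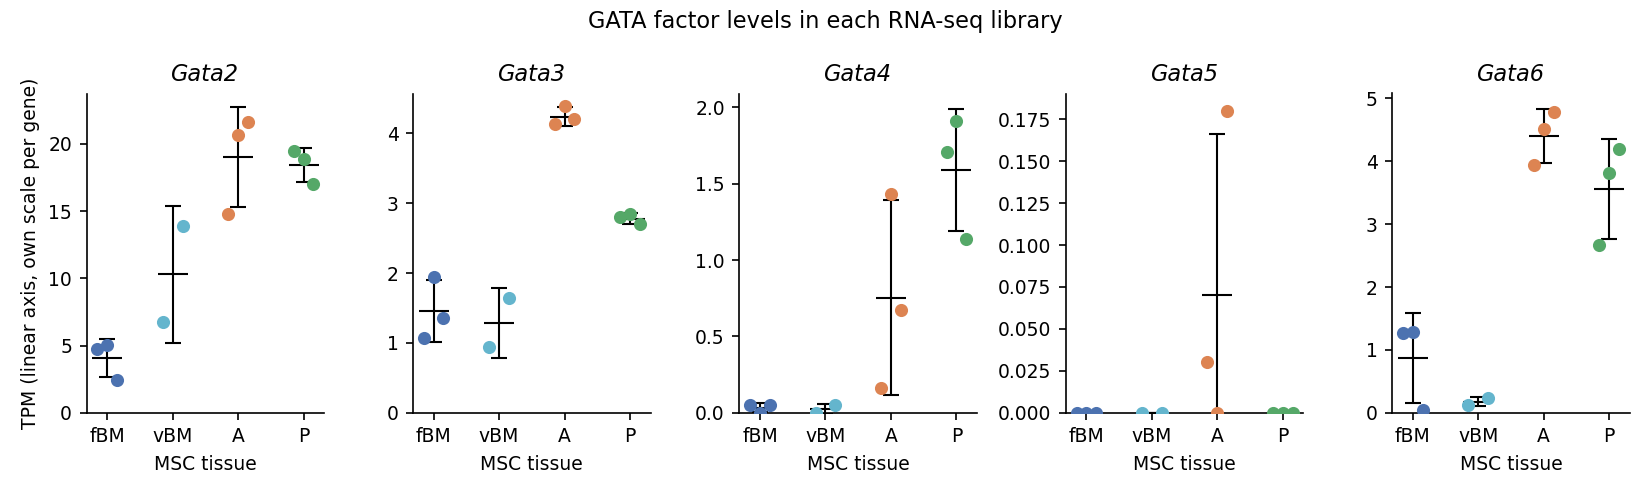
Each point is the TPM of 1 RNA-seq library, with the mean (wide horizontal line) and SD (whiskers, cut at 0 by the axis) of each tissue (n = 3, and n = 2 for vBM-MSCs), on a separate linear axis for each gene. For Gata2, Gata3, Gata4 and Gata6 the A-MSC and P-MSC points lie above all marrow points, while Gata5 leaves 0 in 2 A-MSC libraries only.

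**Figure D3:**
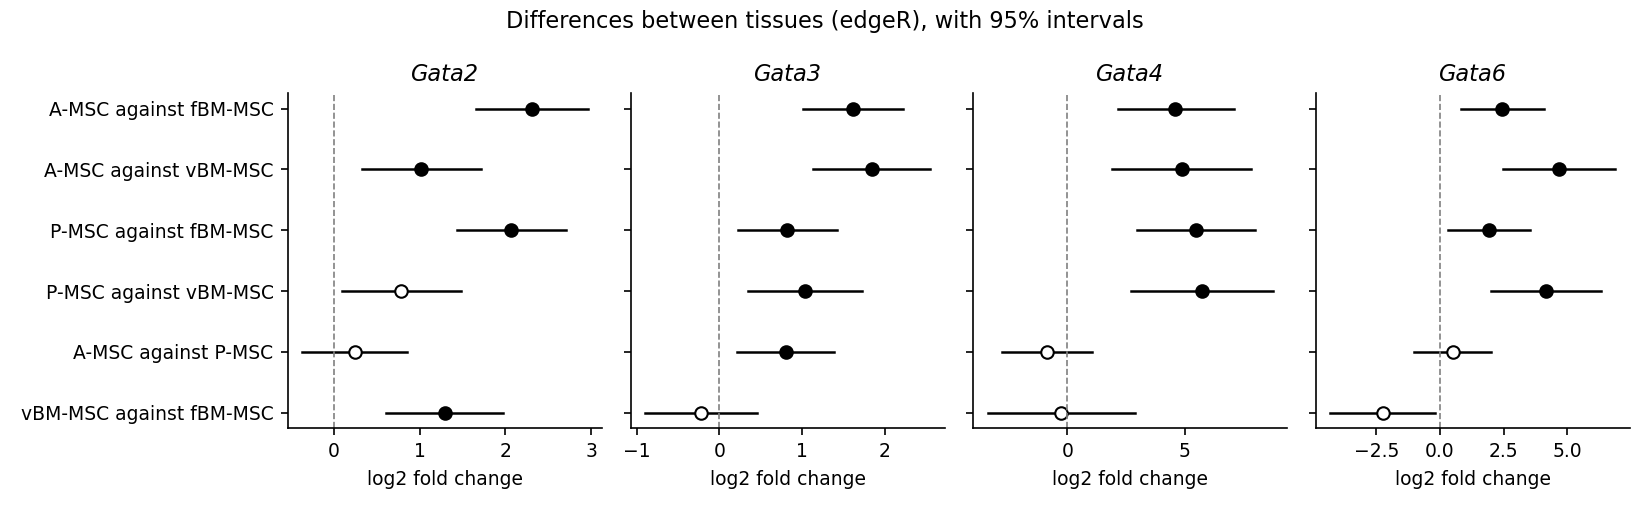
Points give the log2 fold change of Gata2, Gata3, Gata4 and Gata6 in each pair of tissues from edgeR and lines their 95% intervals, on a separate axis for each gene. Filled points passed an adjusted p of 0.05. All points of the 4 comparisons of A-MSCs or P-MSCs with marrow are above 0, and of these only Gata2 in P-MSCs against vBM-MSCs is open.

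Gata2 was the most abundant GATA factor in all 4 tissues. Its TPM was 4.77, 5.01 and 2.42 in the fBM-MSC libraries and 6.74 and 13.92 in the vBM-MSC libraries. It was 14.75, 20.62 and 21.64 in A-MSCs and 19.44, 18.88 and 16.99 in P-MSCs. The fBM-MSC libraries were lowest, the vBM-MSC libraries lay between, and the A-MSC and P-MSC libraries overlapped. Gata2 was 4.96-fold higher in A-MSCs than in fBM-MSCs (log2 fold change 2.31, SE 0.30, adjusted p = 0.000123) and 4.20-fold higher in P-MSCs than in fBM-MSCs (log2 fold change 2.07, SE 0.29, adjusted p = 0.000158). It was 2.44-fold higher in vBM-MSCs than in fBM-MSCs (adjusted p = 0.0214) and 2.03-fold higher in A-MSCs than in vBM-MSCs (adjusted p = 0.0366). P-MSCs exceeded vBM-MSCs by 1.72-fold (95% interval 1.06 to 2.79), which missed the threshold (adjusted p = 0.0723). A-MSCs and P-MSCs differed by 1.18-fold, with an interval of 0.776 to 1.80, which leaves room for a modest difference in either direction. The calls that involve vBM-MSCs lay near the threshold. Leaving out a vBM-MSC library leaves a single one in that tissue, so only the size of the change is given for such fits. The vBM-MSC against fBM-MSC log2 fold change was 0.79 without vBM-MSC replicate 2, beside 1.29. The A-MSC against vBM-MSC difference fell from 1.02 to 0.66 on the log2 scale without vBM-MSC replicate 1. The A-MSC against vBM-MSC call was lost, at log2 fold changes of 0.90 to 1.02, without A-MSC replicate 2 (adjusted p = 0.0865) or 3 (0.0990) or any P-MSC replicate (0.0521 to 0.0537). P-MSCs passed against vBM-MSCs without fBM-MSC replicate 3 (0.0241). Without vBM-MSC replicate 2 that log2 fold change was 1.28, beside 0.78.

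The gene lies on the plus strand of chromosome 6 (GRCm38 chr6:88193891-88207032), with 6 exons in each of its 2 curated RefSeq transcripts, which start at separate promoters. The protein-coding genes on either side, Rpn1 (a subunit of the oligosaccharyltransferase) and Dnajb8 (a testis chaperone), were read for comparison. Rpn1 ranged from 78.79 to 124.55 TPM over all libraries, with its highest values in P-MSCs, and Dnajb8 was listed at 0 in each. Gata2 shares its annotated span with Gm38708. Within 100 kb of Gata2, 12, 9, 14 and 12 regions were listed in the 4 tissues, and 8 of the 15 merged regions were shared by all 4 tissues. The downstream promoter was open in every tissue, with a fold enrichment over the genome-wide background of 7.73, 8.46, 13.98 and 16.92 in the 4 tissues. The upstream promoter was weaker, at 3.68 in fBM-MSCs and 5.52 in both A-MSCs and P-MSCs, and was not listed in vBM-MSCs. The region with the highest enrichment in A-MSCs lay 19.1 kb upstream of the first start site, in intergenic DNA (chr6:88174535-88175129). Its enrichment was 8.46, 5.15, 16.92 and 15.82 in the 4 tissues. These values stood at the 70.3rd, 39.7th, 87.8th and 84.1st percentile of each tissue's own list.

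The 201 bases around the summit of this region (chr6:88174722-88174922, plus strand of RefSeq GRCm38.p6) are shown because it was the most enriched of the 2 Gata2 regions with a GATA word within 100 bases of the summit. The other, 4.1 kb upstream (chr6:88189653-88189853), held 2 words with enrichments of 5.15, 4.78, 7.36 and 4.05 in the 4 tissues. Capitals mark a GATA word, which here is the word AGATAA, the word AGATAG, the word TGATAA or the word TGATAG, on either strand, and positions count from 1 at the left end.
Gata2 19.1 kb upstream: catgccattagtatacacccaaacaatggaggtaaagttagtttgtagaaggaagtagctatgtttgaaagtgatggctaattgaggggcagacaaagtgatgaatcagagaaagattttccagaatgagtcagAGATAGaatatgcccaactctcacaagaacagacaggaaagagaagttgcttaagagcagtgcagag
Gata2 4.1 kb upstream: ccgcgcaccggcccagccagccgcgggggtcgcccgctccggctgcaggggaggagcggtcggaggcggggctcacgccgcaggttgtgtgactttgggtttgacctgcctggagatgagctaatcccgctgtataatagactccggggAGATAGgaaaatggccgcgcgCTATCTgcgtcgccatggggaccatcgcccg
In the first, the word AGATAG starts at position 135 and stands beside an AP-1 word (TGAGTCA, bound by Fos and Jun proteins). In the second, AGATAG starts at position 150 and its reverse complement CTATCT at position 171, in GC-rich sequence. A word is a description of the sequence and not evidence of a bound factor.

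Gata3 followed Gata2 in mean level in both marrow tissues, while in A-MSCs and P-MSCs its mean TPM was just under that of Gata6. Its TPM was 1.07, 1.94 and 1.36 in fBM-MSCs and 0.94 and 1.65 in vBM-MSCs. It was 4.13, 4.39 and 4.20 in A-MSCs and 2.80, 2.85 and 2.70 in P-MSCs. The A-MSC libraries stood above the P-MSC libraries, which stood above all marrow libraries, and the marrow tissues overlapped. Gata3 was 3.07-fold higher in A-MSCs than in fBM-MSCs (log2 fold change 1.62, SE 0.28, adjusted p = 0.000837) and 3.58-fold higher than in vBM-MSCs (adjusted p = 0.00203). The differences of P-MSCs were smaller, at 1.76-fold against fBM-MSCs (adjusted p = 0.0283) and 2.05-fold against vBM-MSCs (adjusted p = 0.0215). A-MSCs exceeded P-MSCs by 1.74-fold (95% interval 1.16 to 2.62, adjusted p = 0.0417). The marrow tissues differed by 0.858-fold, with an interval of 0.536 to 1.37 (adjusted p = 0.689). The A-MSC against P-MSC call was lost when any 1 library of either tissue was left out (adjusted p = 0.0764 to 0.117), and it also missed in 4 other settings given in the closing section. P-MSCs against fBM-MSCs was lost without fBM-MSC replicate 1 (0.0888) or 3 (0.0701) or any P-MSC replicate (0.0572 to 0.0708). P-MSCs against vBM-MSCs was lost without P-MSC replicate 1 (0.0509) or 2 (0.0525). Without vBM-MSC replicate 1, which leaves a single library of that tissue, the P-MSC against vBM-MSC log2 fold change was 0.76, beside 1.04.

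Gata3 lies on the minus strand of chromosome 2 (chr2:9857078-9887953) and has 6 exons. It shares its annotated span with the noncoding genes 4930412O13Rik and 9230102O04Rik, and because Smart-seq2 reads carry no strand, reads from overlapping genes cannot be told apart. Of its neighbours, Taf3, which encodes a subunit of the TFIID complex, had means of 1.92 to 3.24 TPM and was not called over the 4 tissues (adjusted p = 0.262). On the other side, across a gene desert, Celf2, an RNA-binding splicing regulator, was 2.78 ± 2.24 TPM in fBM-MSCs (n = 3) and 13.7 ± 5.66 TPM in vBM-MSCs (n = 2), so its low level was in fBM-MSCs and not in both marrow tissues. The regions near Gata3 numbered 13, 8, 18 and 18 in the 4 tissues. The region over the Gata3 promoter was about equally enriched in all tissues, at 29.06, 25.75, 26.12 and 30.16. Among the regions listed in all 4 tissues, those with the widest range of enrichment lay in distal DNA downstream of the gene. Those listed in A-MSCs and P-MSCs alone lay elsewhere, in an intron of the gene and 25.7 and 86.1 kb upstream. A region 60.2 kb past the start site (chr2:9817942-9818951, intergenic) had an enrichment of 6.99, 6.25, 29.43 and 23.17 in the 4 tissues. It stood at the 96.9th percentile of the A-MSC list and the 53.7th of the vBM-MSC list. Next to it, a region 62.2 kb past the start site was listed in A-MSCs alone (11.77). The region 86.4 kb past the start site had 7.36, 3.68, 16.19 and 15.08 in the 4 tissues. The region 83.0 kb past it was not listed in vBM-MSCs and had 8.83 in fBM-MSCs, 9.93 in adipose and 16.19 in lung cells.

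The summit sequences of the 2 most A-MSC-enriched regions near Gata3 that hold a GATA word within 100 bases of the summit follow, with the words in capitals (chr2:9818286-9818486 and chr2:9795456-9795656, plus strand).
Gata3 60.2 kb downstream: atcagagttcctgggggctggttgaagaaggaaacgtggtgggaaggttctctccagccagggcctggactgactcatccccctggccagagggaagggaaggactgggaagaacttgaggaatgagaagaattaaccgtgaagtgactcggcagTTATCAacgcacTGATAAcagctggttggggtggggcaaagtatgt
Gata3 83.0 kb downstream: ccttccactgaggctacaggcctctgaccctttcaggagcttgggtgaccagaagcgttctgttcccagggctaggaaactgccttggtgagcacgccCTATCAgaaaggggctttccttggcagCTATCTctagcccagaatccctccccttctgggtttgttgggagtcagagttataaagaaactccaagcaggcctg
The first holds TTATCA at position 156 and TGATAA at position 168, which are reverse complements of each other, together with an AP-1 word. The second holds CTATCA at position 99 and CTATCT at position 126 and no AP-1 word. The only region listed in both marrow tissues and in neither other tissue among all 97 lay 118.4 kb past the Gata3 start site, within 100 kb of the end of the gene (chr2:9760035-9760434), with an enrichment of 5.89 in both and 2 GATA words. Such a marrow-only listing was found for 4.44% of regions genome-wide.

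Gata4 was detected almost entirely in the non-marrow MSCs. Its expected counts were 2, 0 and 4 in the fBM-MSC libraries and 0 and 4 in the vBM-MSC libraries. They were 11, 126 and 55 in A-MSCs and 154, 133 and 88 in P-MSCs. In TPM these were at most 0.05 in marrow, 0.16, 1.43 and 0.67 in A-MSCs and 1.71, 1.91 and 1.14 in P-MSCs. A-MSC replicate 1 was far below the other A-MSC libraries, and the A-MSC and P-MSC ranges overlapped. The fitted difference was 24.5-fold between A-MSCs and fBM-MSCs (log2 fold change 4.61, SE 1.13, adjusted p = 0.00722) and 44.8-fold between P-MSCs and fBM-MSCs (log2 fold change 5.48, SE 1.15, adjusted p = 0.00225). Their 95% intervals were wide, at 4.40 to 136-fold and 7.77 to 258-fold, with 6 counts in all in the fBM-MSC libraries. The A-MSC against fBM-MSC log2 fold change was 3.77 without A-MSC replicate 2, and 4.0 and 5.26 without fBM-MSC replicates 2 and 3, and that of P-MSCs was 4.86 and 6.13 without the same fBM-MSC libraries, all still called. With limma-trend on log2(TPM + 1), where the pseudocount shrinks the changes of low genes, the A-MSC and P-MSC values were 0.70 and 1.31 (adjusted p = 0.0288 and 0.000572). Against vBM-MSCs, with 4 counts in all, Gata4 was called higher in A-MSCs (adjusted p = 0.0213) and P-MSCs (adjusted p = 0.00683). A-MSCs and P-MSCs differed by 0.547-fold (log2 fold change −0.87, interval of the fold 0.143 to 2.09, adjusted p = 0.486), and on the log2 scale by −0.39 without A-MSC replicate 1 and −1.71 without A-MSC replicate 2. The A-MSC against vBM-MSC call was lost without A-MSC replicate 2 (adjusted p = 0.0571). Without vBM-MSC replicate 2, which leaves no count in vBM-MSCs, the fitted log2 fold changes against that tissue moved from 4.87 to 8.89 (A-MSCs) and from 5.74 to 9.76 (P-MSCs), so they give no size of the difference. Without vBM-MSC replicate 1 they were 4.04 and 4.91, and without A-MSC replicate 2 the A-MSC value was 4.03.

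Gata4 lies on the minus strand of chromosome 14 (chr14:63198914-63271712), with 7 exons. Its neighbours Neil2, a DNA glycosylase, and Blk, a B cell kinase, did not exceed 0.14 TPM in any library. Of the regions near Gata4, 23, 17, 25 and 22 were listed in the 4 tissues. Several of them lay at the neighbours Ctsb (a lysosomal protease) and Fdft1 (squalene synthase) on the downstream side. The strongest of all sat at the Fdft1 promoter with an enrichment of 24.28 to 37.89 in the 4 tissues. At the Gata4 promoter the enrichment was 2.94, 4.42, 4.41 and 9.56 in the 4 tissues. In fBM-MSCs this was at the 0.869th percentile of the list, and in P-MSCs at the 67.3rd. Distances run from the curated start site, and the annotated span of the gene reaches further upstream. A region 10.7 kb upstream, inside that span, had 6.25, 6.99, 7.36 and 13.24, and one 63.9 kb upstream had 9.56, 5.89, 7.36 and 22.44, in the 4 tissues. A region 26.4 kb upstream, at the 5′ end of the span, was listed in A-MSCs alone (6.62) and held 2 GATA words.

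Gata6 was high in A-MSCs and P-MSCs, intermediate in 2 of 3 fBM-MSC libraries and low elsewhere. Its TPM was 1.27, 1.29 and 0.04 in fBM-MSCs and 0.13 and 0.23 in vBM-MSCs. It was 3.94, 4.51 and 4.78 in A-MSCs and 2.67, 3.81 and 4.19 in P-MSCs. The fBM-MSC libraries were split, with expected counts of 51, 85 and 3, and fBM-MSC replicate 3 lay below both vBM-MSC libraries (8 and 17). That library also had the lowest summed level of the negative MSC markers in fBM-MSCs, which is nearly all Cd34, at 10.26 TPM beside 72.68 and 79.19. The part of this in the Gata6 level was not tested. Gata6 was 25.8-fold higher in A-MSCs than in vBM-MSCs (log2 fold change 4.69, SE 1.01, adjusted p = 0.00613) and 18.2-fold higher in P-MSCs than in vBM-MSCs (log2 fold change 4.18, SE 0.99, adjusted p = 0.00609). With limma-trend on log2(TPM + 1) these log2 fold changes were 2.20 and 1.94, both still called. Against fBM-MSCs it was 5.46-fold higher in A-MSCs (adjusted p = 0.0211) and 3.84-fold higher in P-MSCs (adjusted p = 0.0469). With the replicate number as a block the P-MSC call was lost (log2 fold change 2.13 beside 1.94, adjusted p = 0.0596). Without fBM-MSC replicate 3 both log2 fold changes were smaller and called, at 1.86 for A-MSCs (beside 2.45) and 1.35 for P-MSCs. The A-MSC and P-MSC levels differed by 1.42-fold with an interval of 0.498 to 4.05. The vBM-MSC level was 0.211-fold of the fBM-MSC level (interval 0.0505 to 0.884), which missed the threshold (adjusted p = 0.143). Without fBM-MSC replicate 3, that difference was called (log2 fold change −2.83, adjusted p = 0.00107). The P-MSC against fBM-MSC call was lost without any 1 library other than fBM-MSC replicates 1 and 3 (adjusted p = 0.0502 to 0.111), and the A-MSC against fBM-MSC call without A-MSC replicate 3 (0.0514).

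Gata6 lies on the plus strand of chromosome 18 (chr18:11052510-11085636), with 7 exons, in a gene-poor stretch without another protein-coding gene within 100 kb. Its annotated span overlaps that of Gata6os, which was not among the genes listed, and unstranded reads from the overlap cannot be told apart. The nearest on either side are Mib1, an E3 ubiquitin ligase of Notch signalling, and Rbbp8, a DNA repair nuclease factor. Mib1 was not called over the 4 tissues (adjusted p = 0.0993). Rbbp8 was called, with means of 4.37, 5.58, 7.06 and 12.9 TPM in the 4 tissues. Only 4, 4, 7 and 5 regions were listed near Gata6. The promoter region was enriched by 5.89, 4.05, 12.88 and 17.66 in the 4 tissues. A region 5.9 kb upstream, in an intron of the divergent noncoding gene Gata6os, was listed in A-MSCs (8.46) and P-MSCs (13.98) and in neither marrow tissue. The region 36.4 kb upstream was open in all 4, at 15.08, 12.88, 15.08 and 21.70. None of the 7 Gata6 regions held a GATA word within 100 bases of its summit, where the upper 95% limit for 0 of 7 is 41.0%. Over the whole region 5 of the 7 held a word, with 6 words in the promoter region.

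Gata5 stood apart from the other members. No expected count was listed in the fBM-MSC, vBM-MSC or P-MSC libraries, and the A-MSC libraries held 2, 0 and 14. In A-MSC replicate 3 the 14 counts were 0.373 CPM. A count of 0 allows up to 3 counts, which is 0.0740 to 0.153 CPM in single libraries, so a trace in the other tissues was not detectable at this depth. These limits cover counting error only, as PCR reads without molecular identifiers are not independent molecules. The antisense gene Gata5os was listed at 0 in all 11 libraries. The gene lies on the minus strand of chromosome 2 (chr2:180325088-180335503) and has 6 exons. Neither the promoter nor the gene body held a listed region in any tissue. The nearest region, 7.7 kb upstream, was listed in vBM-MSCs alone at 2.94. The promoters of the downstream neighbours Rps21 (a ribosomal protein) and Cables2 had an enrichment of 44.88 to 49.66 and 29.06 to 37.89 in the 4 tissues. Of the nearest protein-coding genes, Rbbp8nl was listed at 0 in every library and Slco4a1, an organic anion transporter, did not exceed 0.87 TPM. Gata1, the blood member of the family outside the 5, was listed at 0 in 10 libraries and had 6 counts in P-MSC replicate 1.

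**Figure D4:**
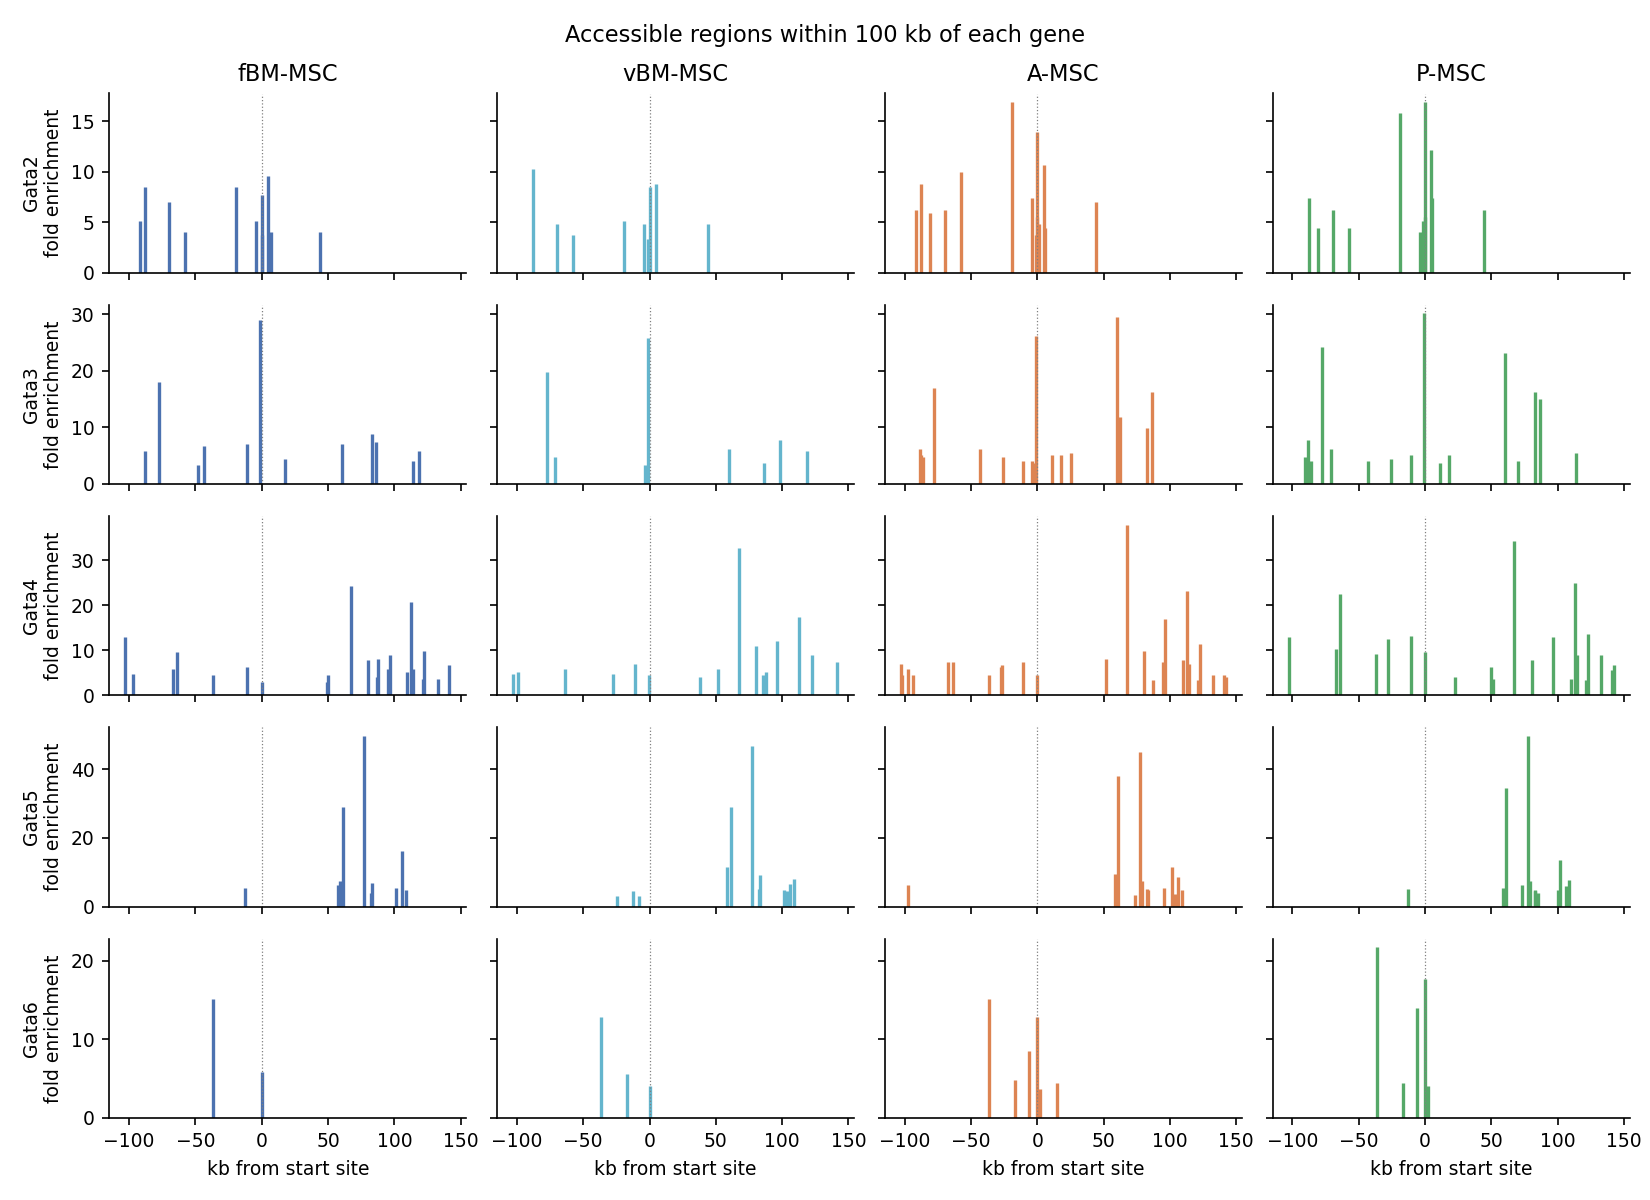
Each line is an accessible region, at its distance in kb from the nearest curated start site of the gene (negative is upstream), and its height is the fold enrichment in the pooled peak list of that tissue. Rows are genes with their own axis. The region 60.2 kb downstream of Gata3 rises from 6.25 in vBM-MSCs to 29.43 in A-MSCs, and the Gata5 start site has no region in any tissue.

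Over all 5 genes, 64, 52, 78 and 72 regions were listed in the 4 tissues. For the 20665 protein-coding genes of chromosomes 1 to 19, the median number of regions in the same window was 15, 14, 15 and 14. Gata4 in A-MSCs, with 25 regions, was matched or exceeded by 19.9% of these genes, and Gata6 in fBM-MSCs, with 4 regions, by 86.5%. Of the 97 merged regions, 12 (12.4%) were listed in A-MSCs alone, against 9.49% of all merged regions, and 8 (8.25%) in A-MSCs and P-MSCs alone, against 5.22%. All 4 tissues shared 32 regions (33.0%, against 30.7%). The pattern furthest above its genome-wide share was the listing in fBM-MSCs, A-MSCs and P-MSCs and not in vBM-MSCs, with 13 regions (13.4%, against 4.62%), of which 6 were near Gata4, 5 near Gata3 and 2 near Gata2. Listing in fBM-MSCs alone was rarer than genome-wide, with 5 regions (5.15%, against 12.9%). Regions near 1 gene share a locus and the lists have no replicates, so these shares were not tested. The whole lists held 99337, 88381, 98008 and 88465 regions, with a median enrichment of 5.89, 5.89, 6.25 and 6.62.

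Which tissue group had the highest share of regions with a GATA word depended on the window searched. In each window, the 95% interval of the regions near the GATA genes held the share of all regions. A word on either strand within 100 bases of the strongest summit was present in 19 of the 97 regions (19.6%, exact Clopper-Pearson 95% interval 12.2% to 28.9%). By gene this was 2 of 15 for Gata2, 6 of 24 for Gata3, 6 of 32 for Gata4, 5 of 19 for Gata5 and 0 of 7 for Gata6. Over all merged regions the share was 25.4% (38051 of 149650). It was 38.3% in regions listed in A-MSCs alone (interval 37.5% to 39.1%) and 38.5% in those listed in A-MSCs and P-MSCs alone (37.4% to 39.6%). It was 29.1% in P-MSCs alone, 23.7% in fBM-MSCs alone, 24.1% in vBM-MSCs alone and 19.7% in all 4 tissues. Over whole regions, which differ in length, the order of the tissue groups changed. A word was then present in 53.6% of regions near the GATA genes (interval 43.2% to 63.8%) and in 74895 of all 149650 regions (interval 49.8% to 50.3%), and the share was highest in regions of all 4 tissues (62.9%), with 59.5% in A-MSCs and P-MSCs alone and 43.7% in both marrow tissues alone. Among regions listed in 1 tissue the share was again highest in A-MSCs (46.8%), followed by P-MSCs (37.8%), fBM-MSCs (33.7%) and vBM-MSCs (32.6%). Within 50 bases of the summit the shares were 8.25% near the GATA genes, 13.4% over all, 22.0% in A-MSCs alone and 9.98% in all 4 tissues. The median GC content around the summits was 52.2% near the GATA genes, 47.8% over all regions, 50.7% in regions of all 4 tissues, 47.3% in A-MSCs alone, and 46.3% both in A-MSCs and P-MSCs alone and in fBM-MSCs alone. Base composition thus differed between the sets, and its part in the word shares was not tested. Among the 20 regions near the GATA genes that were listed in A-MSCs alone or with P-MSCs alone, 4 held a word within 100 bases of the summit (interval 5.73% to 43.7%). An AP-1 word (TGACTCA or TGAGTCA, each the reverse complement of the other), searched after the sequences above were seen, was present in 29 of the 97 regions (29.9%) and in 24.0% of all. In the RefSeq promoter table (sequence just around each start site), neither Gata2 promoter nor the Gata5 promoter held a GATA word and the Gata3 promoter did. Of all promoters in that table, 29.8% did.

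**Figure D5:**
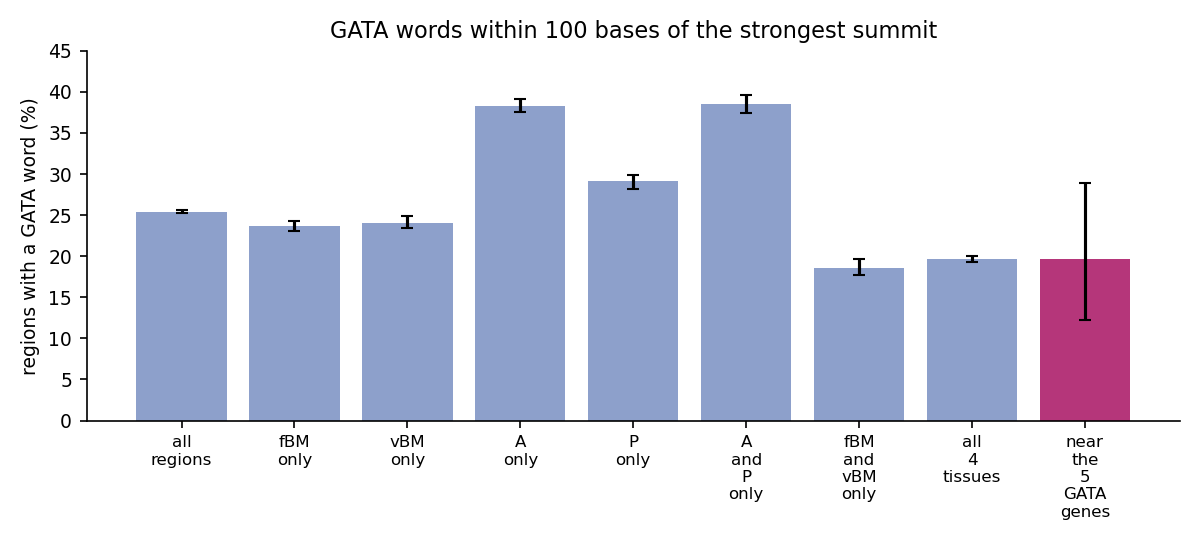
Bars give the percentage of merged accessible regions with a GATA word within 100 bases of the strongest summit, by the tissues that list the region, with exact 95% binomial intervals that cover counting error only. Regions listed in A-MSCs alone (38.3%) and in A-MSCs and P-MSCs alone (38.5%) stand above the others in this window, and the 97 regions near the GATA genes are at 19.6%.

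Proteins that work with GATA factors were described from lists of names. The counts are to be read beside the shares of all tested genes, which were 20.3% higher and 20.6% lower in A-MSCs and 23.0% and 24.7% in P-MSCs against fBM-MSCs, and 12.4% and 13.2% in A-MSCs and 17.7% and 21.0% in P-MSCs against vBM-MSCs. Of 11 tested GATA cofactors, 6 were called higher in P-MSCs than in fBM-MSCs and 0 lower, with a median log2 fold change of 0.46 beside −0.02 for all genes. Of the same 11, 2 were called higher in A-MSCs than in fBM-MSCs and 1 lower (median 0.03 beside −0.03). Against vBM-MSCs, 6 were called higher and 1 lower in P-MSCs, and 2 higher in A-MSCs. Zfpm2 (FOG2), the partner of GATA4 in the heart and gonad, was 6.41 ± 0.129 TPM in P-MSCs, 2.97 ± 1.15 in A-MSCs, 3.07 ± 1.13 in fBM-MSCs (n = 3 each) and 1.56 ± 0.396 in vBM-MSCs (n = 2). It was called higher in P-MSCs than in each other tissue (adjusted p = 0.025 against fBM-MSCs, 0.00153 against vBM-MSCs and 0.0415 against A-MSCs). Zfpm1 (FOG1), the partner of GATA1, was at 0.427 to 1.19 TPM on average. Lmo4, an adaptor of GATA complexes, rose from 17.4 ± 4.82 TPM in fBM-MSCs to 37.5 ± 4.52 in A-MSCs (adjusted p = 0.000385) and 36.4 ± 2.52 in P-MSCs (adjusted p = 0.000865). At 25.5 ± 1.91 TPM in vBM-MSCs it was called lower than in A-MSCs (adjusted p = 0.0278) and missed the threshold against P-MSCs (0.0758).

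Among 8 tested proteins with other GATA-type zinc fingers, 2 were called higher and 2 lower in A-MSCs than in fBM-MSCs, and 1 each against vBM-MSCs. In P-MSCs these were 2 and 1 against fBM-MSCs and 1 each against vBM-MSCs. Trps1, an atypical GATA protein that represses transcription in cartilage and bone, ran opposite to the members. It was 1.79 ± 0.826, 1.49 ± 0.53, 0.123 ± 0.0586 and 0.557 ± 0.0681 TPM in the 4 tissues, with adjusted p = 6.61e-05 for A-MSCs and 0.00277 for P-MSCs against fBM-MSCs, and 0.000374 and 0.0167 against vBM-MSCs. Gatad2a and Mta3, subunits of the NuRD repressor complex, stayed within 13.2 to 25.3 TPM on average, and both were called over the 4 tissues (adjusted p = 0.0193 and 0.036).

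Of 15 tested cardiac and visceral partner factors, 5 were called higher and 5 lower in A-MSCs than in fBM-MSCs, and 5 and 4 in P-MSCs. Against vBM-MSCs these were 3 and 3 in A-MSCs and 5 and 2 in P-MSCs. Of the 15, Wt1, Tcf21 and Tbx20 reached the count minimum in no marrow library, which fixed their direction against marrow, and they make up 2 of the higher calls in each of these 4 comparisons. Wt1, the Wilms tumour factor of mesothelium and gonad, which is also among the mesothelial markers, was at 12.4 ± 2.26 TPM in A-MSCs and listed at 0 in all other libraries. Tbx5, a heart, forelimb and lung factor, was at 2.63 ± 0.72 TPM in P-MSCs and 0.72 ± 0.554 in fBM-MSCs, and was listed at 0 in A-MSCs and vBM-MSCs. Tcf21, a factor of visceral mesenchyme, was at 4.29 ± 0.521 TPM in A-MSCs and 0.86 ± 0.601 in P-MSCs, and at 0 in marrow. Of 5 tested blood partner factors, 3 were called higher in A-MSCs than in fBM-MSCs and 1 lower, and 3 higher than in vBM-MSCs. In P-MSCs 2 were called higher and 1 lower than in fBM-MSCs (median log2 fold change −0.21), and 1 higher and 1 lower than in vBM-MSCs (−0.03). The ETS repressor Etv6 was 8.76 ± 0.603 TPM in A-MSCs and 3.45 ± 0.325 in fBM-MSCs (adjusted p = 1.64e-05), and Runx1 was 7.92 ± 1.30 and 4.89 ± 0.811 (adjusted p = 0.00241). In vBM-MSCs they were at 3.45 ± 0.396 and 5.13 ± 1.03 TPM (adjusted p = 8.59e-05 and 0.0109 for A-MSCs against vBM-MSCs). In P-MSCs they were at 5.05 ± 0.255 and 4.24 ± 0.289 TPM.

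Many known targets of the GATA factors did not reach the count minimum. Of 13 cardiac and gonadal targets of GATA4 and GATA6, 6 were tested, and 3 were called higher and 0 lower in A-MSCs than in fBM-MSCs, and 3 and 0 in P-MSCs. Actc1, cardiac actin, is 1 of the 3 in A-MSCs. It reached the count minimum in no marrow library, so it could be called only as higher outside marrow. Against vBM-MSCs 2 were called higher in each. Nppb, the B-type natriuretic peptide, was 55.1 ± 2.33 TPM in A-MSCs, 15.9 ± 3.72 in P-MSCs, 1.49 ± 0.579 in fBM-MSCs and 30.9 ± 25.3 in vBM-MSCs (n = 2), where neither A-MSCs nor P-MSCs differed past the threshold (adjusted p = 0.213 and 0.0863). Hsd3b1, a steroid-synthesis enzyme, was 22.4 ± 0.125 TPM in P-MSCs, 6.17 ± 3.05 in A-MSCs and 2.15 ± 1.43 in fBM-MSCs, and was listed at 0 in vBM-MSCs. Actc1 had a mean of 1.12 TPM in A-MSCs and was listed at 0 in 1 A-MSC library and in marrow. Of 7 tested extraembryonic endoderm targets, 3 were called higher in A-MSCs and 4 in P-MSCs than in fBM-MSCs, with 0 lower. Afp, which was among the 7 and not among these calls, reached the count minimum in no marrow library and could not be called lower. Against vBM-MSCs 1 was called higher in each (median log2 fold changes of 0.09 and 0.57). Pdgfra, the receptor that also marks mesenchymal cells, was 0.593 ± 0.28, 3.15 ± 1.89, 7.34 ± 0.847 and 6.45 ± 0.868 TPM in the 4 tissues (adjusted p = 2.33e-05 for A-MSCs and 2.4e-05 for P-MSCs against fBM-MSCs, and 0.0206 and 0.0532 against vBM-MSCs). Lamc1, a basement membrane laminin chain, and Dab2, an endocytic adaptor, were at 8.56 ± 1.14 and 33.2 ± 0.889 TPM in P-MSCs and 3.36 ± 0.817 and 15.2 ± 4.67 TPM in fBM-MSCs (adjusted p = 0.000395 and 0.00104). In vBM-MSCs they were at 5.52 ± 1.85 and 24.4 ± 2.68 TPM, which P-MSCs were not called above (adjusted p = 0.0615 and 0.192), and in A-MSCs at 5.40 ± 0.198 and 15.2 ± 0.695 TPM, where only Lamc1 was called above fBM-MSCs (adjusted p = 0.0103).

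Of 13 mast cell and endothelial targets of GATA2, 5 were tested. In P-MSCs 3 were called higher than in fBM-MSCs and 2 higher than in vBM-MSCs, and in A-MSCs 1 was called lower than in vBM-MSCs. Kdr reached the count minimum in no marrow library, so its direction against marrow was fixed. The 3 called against fBM-MSCs were also called lower in A-MSCs than in P-MSCs. They were Vcam1, an adhesion molecule (116 ± 2.04 against 38.8 ± 8.89 TPM), Kdr, the VEGF receptor (2.56 ± 0.259 against 0.0567 ± 0.0808), and Il1rl1, the IL-33 receptor (43.4 ± 6.28 against 8.59 ± 8.66). Their means in vBM-MSCs were 62.6, 0.115 and 22.0 TPM, and Il1rl1 was the one not called in P-MSCs against vBM-MSCs (adjusted p = 0.278). Il1rl1 was also the only tested gene of 8 lymphoid targets of GATA3, and at 3.10 ± 0.28 TPM in A-MSCs it was called lower than in P-MSCs (adjusted p = 0.0021) and vBM-MSCs (adjusted p = 0.0158).

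Of 8 tested adipocyte differentiation genes that GATA2 and GATA3 oppose in adipose precursors, 4 were called higher and 1 lower in A-MSCs than in fBM-MSCs, and 1 higher and 3 lower in P-MSCs. Against vBM-MSCs, 1 was called in A-MSCs, which was lower (median log2 fold change 0.72), and 4 in P-MSCs, all lower. Cebpa, a driver of fat cell differentiation that is also among the blood partners, was 3.26 ± 1.08, 3.01 ± 1.58, 0.98 ± 0.295 and 0.0733 ± 0.0681 TPM in the 4 tissues (adjusted p = 0.0254 for A-MSCs and 4.51e-05 for P-MSCs against fBM-MSCs, and 0.0772 and 0.000111 against vBM-MSCs). Fabp4, the fatty acid carrier of fat cells, was 40.8 ± 20.1, 40.4 ± 26.0, 100 ± 51.2 and 3.08 ± 0.661 TPM in the 4 tissues, and P-MSCs were called lower than each of the others (adjusted p = 0.000184, 0.000477 and 0.000106 in the same order). A-MSCs overlapped marrow, and were called above fBM-MSCs (adjusted p = 0.0369) and not above vBM-MSCs (0.0643). Cd36, a fatty acid transporter, was 0.153 ± 0.0902, 0.555 ± 0.502, 3.4 ± 2.78 and 0.0333 ± 0.0493 TPM in the 4 tissues. A-MSCs were called above P-MSCs (adjusted p = 0.00192) and fBM-MSCs (0.00565) and not above vBM-MSCs (0.0921).

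The genes with the pattern most like each member over the 11 libraries were found by Pearson's r on log2(TPM + 1). The libraries of a tissue resemble each other, so these values describe tissue patterns. For Gata2 they were Csrnp1 (r = 0.986), Klk8 (0.979), Csnk1e (0.978), Tuba1c (0.972) and Hic1 (0.972). Csrnp1, a nuclear protein induced by AXIN1, and Hic1, a repressor that marks quiescent mesenchymal progenitors, had mean levels of 3.38 and 2.82 TPM in fBM-MSCs and 15.6 and 13.6 in A-MSCs. For Gata3 they were Gm8773 (0.974), Tes (0.970), Fgl2 (0.966), 4933434E20Rik (0.964) and Ccdc6 (0.963). Tes, a focal adhesion protein, had mean levels of 71.6, 76.9, 200 and 132 TPM in the 4 tissues. For Gata4 they were Fam89b (0.971), Ict1 (0.969), Cenpn (0.959), Nle1 (0.954) and Shmt2 (0.953). For Gata6 they were Mex3b (0.968), Aldh1a2 (0.962), Axl (0.961), Nap1l1 (0.957) and Klf5 (0.957). Aldh1a2, the enzyme that makes retinoic acid in embryonic mesoderm, had mean levels of 3.68, 0.87, 22.8 and 19.6 TPM. Ranked by Spearman's rho instead, the 5 most alike genes shared 2 with this set for Gata2, 1 for Gata3 and 0 for Gata4 and Gata6. Between members, r ran from 0.629 (Gata3 and Gata4) to 0.882 (Gata3 and Gata6).

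Markers of MSCs and of other cells were read beside these results. All 4 positive MSC markers (Itgb1, Cd44, Ly6a and Vcam1) were present in every tissue, with summed levels of 983 to 2336 TPM. Of the negative markers, Ptprc did not exceed a mean of 0.27 TPM, whereas Cd34 was at 54.0 TPM in fBM-MSCs. Pecam1 had means of 0.01, 0.155, 1.49 and 0.177 TPM in the 4 tissues. Mesothelial markers had higher sums in A-MSCs and P-MSCs than in marrow. Of 10 named and 9 found in the files, 9 averaged at least 1 TPM in A-MSCs, 3 in P-MSCs and 2 in each marrow tissue, and their sum was 131.51 to 182.21 TPM in A-MSCs, 77.19 to 99.87 in P-MSCs, 18.89 to 24.23 in vBM-MSCs and 2.32 to 14.65 in fBM-MSCs. The P-MSC sum was mainly Upk1b and Krt19, with Wt1, Lrrn4 and Gpm6a at a mean of 0. Within A-MSCs the order was opposite to that of the GATA factors. Over A-MSC replicates 1, 2 and 3 the mesothelial sum was 182.21, 171.98 and 131.51 TPM. The summed GATA factors were at 23.01, 30.95 and 31.47 TPM. Endothelial markers summed to 3.4 to 55.3 TPM in A-MSCs and 2.55 to 8.29 in P-MSCs, with at most 1.19 in marrow. The 55.3 TPM was A-MSC replicate 1, the A-MSC library with the least Gata2, and came mainly from Emcn. Of the other endothelial markers, Cdh5 was at a mean of 0.663 TPM in A-MSCs and 0.07 in P-MSCs. Pecam1 had its highest mean in A-MSCs (1.49 TPM) and Kdr in P-MSCs (2.56 TPM). Tek did not exceed a mean of 0.5 TPM in any tissue. Macrophage markers summed to 40.52 to 52.09 TPM in fBM-MSCs, 24.41 to 45.1 in vBM-MSCs, 17.73 to 27.05 in A-MSCs and 14.73 to 16.86 in P-MSCs, so vBM-MSCs and A-MSCs overlapped, and the members differed in order. The mean of Lyz2 was 27.0, 29.2, 9.27 and 2.09 TPM and that of Cd68 14.6, 1.8, 5.0 and 6.18 TPM in the 4 tissues. Csf1r had its highest mean in A-MSCs (5.9 TPM) and Cd14 in P-MSCs (5.09 TPM, beside 3.56, 2.87 and 2.08 in the other tissues). Adgre1 was listed at 0 in fBM-MSCs, vBM-MSCs and P-MSCs and had a mean of 0.123 TPM in A-MSCs. Markers of cardiac and smooth muscle summed to 12.24 to 36.9 TPM in fBM-MSCs, 115.68 to 257.26 in vBM-MSCs, 586.57 to 772.18 in A-MSCs and 218.72 to 295.72 in P-MSCs. The sum was mainly the smooth muscle gene Cnn1, with the cardiac gene Myh6 at 0 in all 4 tissues. Tnnt2, cardiac troponin T, had means of 2.53, 2.59, 1.76 and 22.6 TPM in the 4 tissues. Epithelial markers reached 8.72 TPM in A-MSCs at most and 0.70 elsewhere. Mast cell, lymphoid and erythroid or megakaryocyte markers summed to at most 0.97, 0.22 and 1.64 TPM. The part of mesothelial, endothelial, macrophage and muscle cells in the GATA factor levels was not tested.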

How the data were processed

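Cultured MSCs of 4 tissues had been profiled by RNA-seq and ATAC-seq. The authors aligned paired Smart-seq2 reads to mm10 and quantified them with RSEM and STAR. RSEM gives an expected count, deposited without normalization, which can be fractional where a read fits several genes. The deposited TPM divides it by effective transcript length and scales each library to the same sum. The authors also deposited FPKM and gene lengths, which were not used. ATAC-seq reads were trimmed (Trim Galore), aligned (Bowtie), deduplicated (Picard), corrected for the Tn5 offset and cleared of blacklisted loci by the authors, who ran MACS2 on all samples of a tissue together. The fold enrichment the authors deposited is a ratio to the genome-wide mean. Of the other deposited values, −log10 q served as a threshold and the MACS2 score was not used. Tool versions are not given in the sources used here. Replicate 3 of the vBM-MSC RNA-seq was not analysed here.

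Expected counts (6.3% of them not whole, none among the 5 members) were rounded. R 4.3.3 with edgeR 4.0.16 fitted one quasi-likelihood model with a mean per tissue and TMM scaling to the 11 libraries together. Genes under 1 CPM in all but 1 library or in all of them were left out, and two-sided p-values were adjusted over the other 12509 genes (Benjamini-Hochberg). The median depth was 34414200 expected counts. The study calls the libraries of a tissue biological replicates. Libraries of different tissues can share a mouse, and the model treated all as independent. Intervals are 95%. Alternatives were RLE size factors, DESeq2 1.42.0, other filters, limma-trend 3.58.1 on log2(TPM + 1) and log2(TPM + 0.1), a replicate block, models of 2 tissues, and each library left out.

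Summits that share a region were joined, and regions of the tissues sharing at least 1 base were merged. Distances run from the strongest summit to the nearest curated RefSeq start site of GRCm38.p6, the assembly of mm10. Promoters are within 1 kb of a start site. Gata4 and Gata6 promoters were not in the promoter table. The members and gene lists were chosen with earlier results of these data known, so list counts are descriptions. Named genes were the members and Gata1, up to 3 genes per list past the 4-tissue threshold with the largest range of tissue means, the 5 genes most like each tested member, the nearest protein-coding genes and the markers. The scripts were tested on simulated data. Python 3.11.15, pandas 2.3.3, numpy 2.4.6, scipy 1.17.1 and matplotlib 3.10.9 were used.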

Additional observations from a re-analysis of the deposited data

How the results depend on the processing

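Of 192 refits of the 24 member comparisons under 8 alternatives, 175 kept direction and side of the threshold, 13 fell below it, 4 rose above it and 0 changed direction. With limma-trend, Gata2 in A-MSCs against vBM-MSCs fell to 0.88 (pseudocount 1, adjusted p = 0.0515) and 0.94 (pseudocount 0.1, 0.0652), and Gata4 in the same pair to 0.71 (pseudocount 1, 0.0613), all log2 fold changes. Some calls held at a smaller size, such as Gata4 in P-MSCs against fBM-MSCs at 1.31 and 3.66 (pseudocounts 1 and 0.1) beside 5.48. Gata3 in A-MSCs against P-MSCs missed without a filter (0.79, 0.0796), at a CPM of 0.1 (0.79, 0.0558) and with limma-trend (0.47 and 0.59, 0.0627 and 0.124). With 2 tissues in the model, Gata2 in vBM-MSCs against fBM-MSCs (1.28, 0.141), Gata3 in P-MSCs against fBM-MSCs (0.82, 0.0502), Gata4 in A-MSCs against vBM-MSCs (4.89, 0.0555), and Gata6 in A-MSCs (2.45, 0.0547) and P-MSCs (1.94, 0.0954) against fBM-MSCs missed. Gata2 in P-MSCs against vBM-MSCs passed with DESeq2 (0.78, 0.0374), limma-trend at pseudocount 1 (0.85, 0.0412) and 2 tissues (0.80, 0.0309), and Gata6 in vBM-MSCs against fBM-MSCs with DESeq2 (−2.29, 0.0389).

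The tissues came from the same mice, but nothing states that a replicate number marks a shared mouse, and the numbers were not taken as pairs. Deviations of same-numbered libraries correlated at −0.028 to 0.125 (median 0.007, 15 pairs) and those of other pairs at −0.125 to 0.109 (median −0.0045, 30 pairs), and not every library correlated best with its own number. With the replicate block, Gata6 in P-MSCs against fBM-MSCs missed (2.13, 0.0596), no other member call changed, and genes called in vBM-MSCs against fBM-MSCs numbered 1326 beside 1601.

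Members called in A-MSCs against P-MSCs fell from 1 to 0 without a filter, at a CPM of 0.1 and with limma-trend, in A-MSCs against vBM-MSCs from 4 to 2 (limma-trend, pseudocount 1), and in P-MSCs against fBM-MSCs from 4 to 2 (2 tissues). In vBM-MSCs against fBM-MSCs they were 2 with DESeq2 and 0 with 2 tissues, where all genes called fell from 1601 to 297. For the other comparisons, all genes called in the same refits are not given here. A change in the members thus cannot be told from a general one.

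Leaving out each library in turn, the log2 fold changes ranged for Gata2 from 0.66 to 1.52 (A-MSCs against vBM-MSCs), 0.41 to 1.28 (P-MSCs against vBM-MSCs) and 0.79 to 1.66 (vBM-MSCs against fBM-MSCs). For Gata3 they ranged from 0.77 to 0.83 (A-MSCs against P-MSCs), 0.66 to 1.04 (P-MSCs against fBM-MSCs), 0.76 to 1.39 (P-MSCs against vBM-MSCs) and −0.58 to 0.06 (vBM-MSCs against fBM-MSCs, reversed to 0.01 without fBM-MSC replicate 2 and 0.06 without vBM-MSC replicate 1). For Gata4 they ranged from −1.71 to −0.39 (A-MSCs against P-MSCs), 3.77 to 5.26 (A-MSCs against fBM-MSCs), 4.86 to 6.13 (P-MSCs against fBM-MSCs), 4.91 to 9.76 (P-MSCs against vBM-MSCs), 4.03 to 8.89 (A-MSCs against vBM-MSCs) and −4.28 to 0.58 (vBM-MSCs against fBM-MSCs, reversed to 0.03 and 0.40 without fBM-MSC replicates 1 and 3 and 0.58 without vBM-MSC replicate 1). For Gata6 they ranged from 1.86 to 2.87 (A-MSCs against fBM-MSCs), 1.35 to 2.36 (P-MSCs against fBM-MSCs) and −2.83 to −1.82 (vBM-MSCs against fBM-MSCs). Members called ranged from 0 to 1 (A-MSCs against P-MSCs), 2 to 4 (A-MSCs against vBM-MSCs) and 2 to 3 (P-MSCs against fBM-MSCs). These counts, too, stand without all genes called in the same fits.

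Regions near the members numbered 38, 26, 47 and 46 (fBM-MSCs, vBM-MSCs, A-MSCs, P-MSCs) at a −log10 q of 7, 9, 11, 17 and 24 at 20, and 35, 28, 42 and 36 within 50 kb. At a −log10 q of 7 the whole lists held 56769, 50763, 59873 and 55648 regions, which was 57.1%, 57.4%, 61.1% and 62.9% of each list. GATA words were in 8.25% of the merged regions near the members within 50 bases of the summit (13.4% of all regions) and 53.6% over the whole region (74895 of 149650 over all). The causes were not tested. Depth limits Gata4 in marrow, Gata5 and Gata1, and the ATAC-seq values have no replicates.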
